A study of Macaca mulatta and Mus musculus with 5 samples.

Results

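Il7r, Kit and Flt3 encode 3 cytokine receptors of blood cell progenitors, and their transcripts were followed through B cell stages and other immune classes of the meninges in mouse and macaque. The genes were taken by symbol, as Il7r, Kit and Flt3 among the 31017 genes of the mouse table and as IL7R, KIT and FLT3 among the 13469 to 14062 genes listed in each macaque table, and all 3 were listed in each of the 5 tables. In the mouse annotation (GENCODE vM21, build GRCm38, which is mm10), Il7r lies on the minus strand at chr15:9505788-9530176 with 8 exons in its longest transcript. Kit lies on the plus strand at chr5:75574916-75656722 with 21 exons, and Flt3 on the minus strand at chr5:147330741-147400489 with 24 exons. Flt3 overlaps 1 antisense gene, and reads of the pair may be hard to separate if strand was not used in counting. No macaque coordinates were used here.

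The interleukin-7 receptor alpha chain, encoded by Il7r, pairs with the common gamma chain Il2rg to bind IL-7, or with Crlf2 to bind TSLP, and signals through JAK kinases and STAT5. Kit and Flt3 are related receptor tyrosine kinases whose ligands are stem cell factor (Kitl) and the Flt3 ligand (Flt3l). In bone marrow Flt3 marks early lymphoid progenitors and dendritic cell lineages, Kit marks stem cells, early B cell precursors and mast cells, and Il7r is known for sustaining mouse pro-B and pre-B cells, T cells and innate lymphoid cells.

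The mouse data were 1 library of meninges pooled over C57BL/6 males of 2, 21 and 48 days of age, with no map from cells to ages used here. The macaque data were 10x channels from female Chinese rhesus macaques of 4 to 8 years, 2 from meninges and 2 from spleen, and the labels name no treatment, transgene or deletion in any group. Whether a tissue's channels came from different animals is not labelled, so SDs and p-values measure only the spread between channels, which may be technical. The 1 mouse library allows no test. After filtering, 13267 mouse, 4029 and 4269 meningeal macaque and 5839 and 6783 spleen cells were kept, with median depths per barcode of 6309, 4096, 4034, 2397 and 2665.5 UMIs (unique molecular identifiers, 1 per captured transcript). Between 4 and 28 barcodes were shared by any pair of libraries. The sort label reads CD45–CD11b– for mouse and adds CD3– for macaque, and whether its first dash is a minus sign cannot be settled from it. The CD45 transcript, Ptprc or PTPRC, had UMIs in 82.1% of mouse cells and in 85.1 to 87.9% of macaque cells. Against the CD3– label, CD3 transcripts were detected in 41.7 and 41.4% of macaque cells from meninges, and in 21.6 and 23.7% of those from spleen.

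Cells were assigned to classes by raw UMIs of marker genes that do not include the 3 receptors. The B cell series began with pro-B cells (Dntt, which adds bases at heavy chain joints, and surrogate light chain genes), then large pre-B cells (surrogate light chain and cycling genes), small pre-B cells (Rag1 or Rag2 without cycling genes), immature cells with and without Rag genes, and mature B cells (Ms4a1, Ighd and Fcer2a). Markers outside the gates fitted the mouse names of the B stages and NK cells: Pax5 had UMIs in at least 83.0% of the cells of each B stage, Cr2 was in 29.5% of mature B cells and at most 2.93% of earlier stages, and Klrb1c was in 94.6% of NK cells. The other mouse classes carry the names of their gates. In macaque, large pre-B cells had PAX5 UMIs in 55.3 and 43.2%, but the pro-B gate had PAX5 in 29.4% of its cells in channel 1 and in 0 of 22 in channel 2, with CST3, a gene of myeloid and dendritic cells, in 23.5 and 27.3%. That gate is therefore called DNTT-gated cells in macaque. The macaque gate written for innate lymphoid cells (11 and 16 cells) carried the T cell receptor transcript TRAC in 54.5 and 56.2% of cells, against 21.0 and 21.2% of mature B cells, although its cells have no CD3 UMI by construction. It is therefore called the CD3-negative lymphoid gate in macaque, and whether it holds T cells was not tested. The mouse innate lymphoid gate, which also bars CD3 UMIs, was not checked for T cell receptor transcripts. A share of 37.6% of mouse cells fell in no class. Because gates ask for presence of some genes and absence of others, they also select on depth, and median UMIs of the mouse B stages ran from 5065.5 in RAG-positive immature to 15650 in large pre-B cells, with 31260.5 in myeloid progenitors and 19281 in the Cd34 progenitor gate.

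Mouse Il7r was high from the pro-B to the small pre-B stage, where it peaked, and was lower at each later stage. Pro-B cells (672 cells) had 317 UMIs of Il7r in each 1000000 UMIs of the class (CPM; 95% Poisson interval 305 to 330), large pre-B cells (709) had 303 (294 to 312), and small pre-B cells (2077) had 666 (651 to 681). RAG-positive immature cells (836) stood at 333 CPM (319 to 348), immature cells (920) at 106 (97.7 to 115) and mature B cells (640) at 24.9 (20.3 to 30.3). The intervals of pro-B cells overlapped those of large pre-B and RAG-positive immature cells, and the other stages were apart. These intervals cover counting error only, and no replicate stands behind them.

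The share of cells with an Il7r UMI gave a different order among the early stages, whose depths differed (medians of 8418.5, 15650 and 5151 UMIs in pro-B, large pre-B and small pre-B cells). Il7r UMIs were found in 80.2% of pro-B, 91.0% of large pre-B, 84.9% of small pre-B, 60.0% of RAG-positive immature, 28.6% of immature and 9.84% of mature B cells. With each cell thinned to 1000 UMIs, the shares were 25.4, 30.2, 43.1, 23.4, 9.26 and 1.88% in that order, with no cell left out of 4 of the stages and 1 small pre-B and 2 immature cells too shallow. Small pre-B cells thus led the B stages in CPM and at equal depth, while large pre-B cells led in Il7r UMIs per cell, with 5 or more in 54.2% of cells against 31.7% of small pre-B and 32.0% of pro-B cells. In mature B cells, 0.31% of cells had 5 or more, and the 10 highest cells held 46.5% of the UMIs of the class.

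Outside the B series, innate lymphoid cells had the highest Il7r level of the classes with at least 20 cells. The 189 innate lymphoid cells, gated on Gata3 with tissue innate genes, had 979 CPM (933 to 1027) and UMIs in 97.9% of cells, 60.8% after thinning. T cells (1748) had 502 CPM (490 to 513) and UMIs in 66.6% of cells, 32.6% after thinning. Within T cells, those with Cd8b1 stood at 307 CPM, those with Cd4 at 541 and those with neither at 613. Plasmacytoid dendritic cells (216), which make type I interferon, had 173 CPM (159 to 187) and NK cells (112) had 140 (119 to 164), with overlapping intervals. Mast cells (24) had 30.3 CPM (11.1 to 66.0) and myeloid progenitors (22) had 3.83 (0.79 to 11.2). In the 9 cells of the Cd34 progenitor gate no Il7r UMI was seen, and 3 counts there would be 15.4 CPM.

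Pro-B cells with a cycling transcript (301) had 295 CPM and those without (371) had 360, with Il7r UMIs in 89.4 and 72.8% of cells. Their median depths were 14598 and 6937 UMIs, and at 1000 UMIs per cell the shares were 24.9 and 25.9%.

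**Figure D1:**
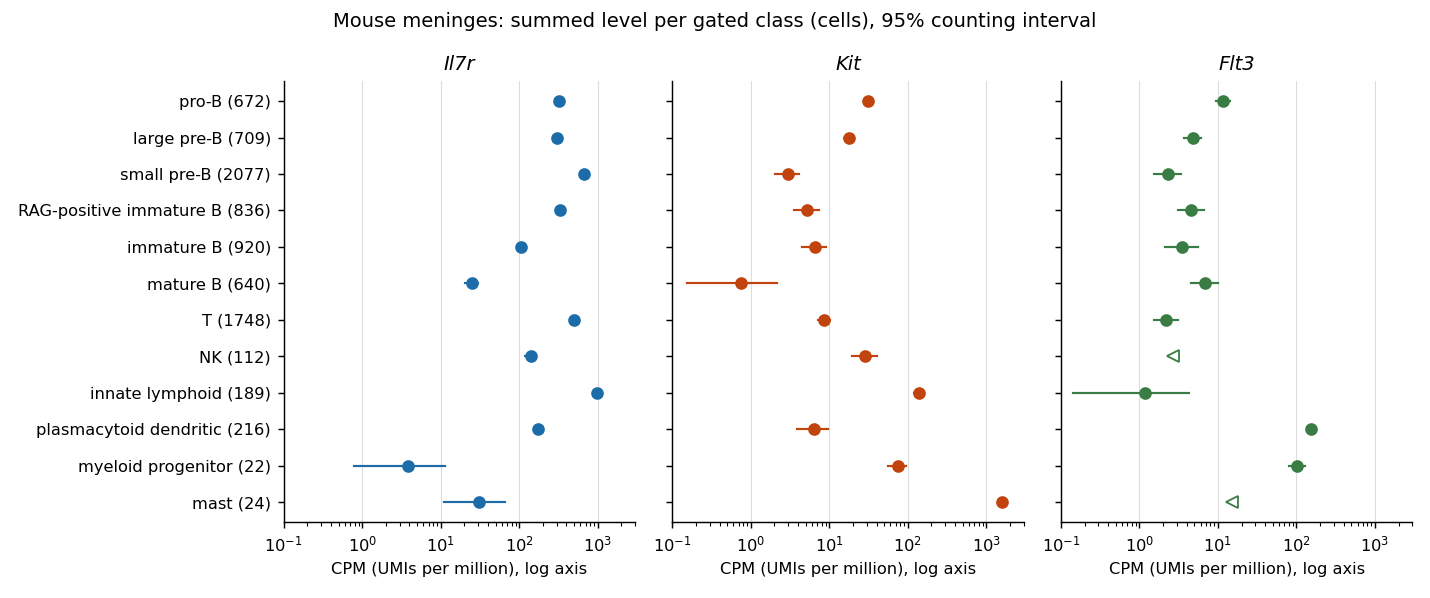
Levels of the 3 receptors in the mouse classes in CPM on a log axis, with 95% Poisson intervals, 1 library. Il7r was highest in innate lymphoid cells (979 CPM), Kit in mast cells (1566 CPM) and Flt3 in plasmacytoid dendritic cells (151 CPM).

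Kit had its highest level in mast cells and, within the B series, in pro-B cells. Mast cells had 1566 CPM (1397 to 1750) with UMIs in 23 of 24 cells, and they held 10.7% of the Kit UMIs of the library while making up 0.18% of its cells. Cells of no class, 37.6% of the library, held 43.7% of the Kit UMIs. Cells of the Cd34 progenitor gate had 215 CPM (155 to 291) with UMIs in 9 of 9 cells, innate lymphoid cells 137 (120 to 156) with UMIs in 50.8%, and myeloid progenitors 74.0 (56.2 to 95.6) with UMIs in 77.3%. Basophil-lineage cells had 287 CPM over 14 cells, but all these UMIs came from 2 cells. The interval of the Cd34 gate overlapped those of basophil-lineage cells (214 to 376) and, by a small margin, innate lymphoid cells, while innate lymphoid cells and myeloid progenitors were apart.

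Pro-B cells had 30.9 CPM of Kit (27.2 to 35.0) with UMIs in 23.2% of cells, at most 6 in a cell. NK cells were at a similar 28.8 CPM (19.7 to 40.6). Large pre-B cells had 17.7 CPM, small pre-B cells 2.94, RAG-positive immature cells 5.19, immature cells 6.50 and mature B cells 0.74, the last from 3 UMIs in 640 cells. The 10 highest cells held 81.8 and 91.4% of the Kit UMIs of the RAG-positive immature and immature classes, whose levels ran from 1.67 to 9.49 and from 2.40 to 16.7 CPM under other filters and gates. The ratio of pro-B to mature B cells was 41.8, with a 95% counting interval of 14.1 to 204. T cells had 8.56 CPM, and those with neither Cd4 nor Cd8b1 had 14.4 with UMIs in 6.18% of cells, against 0.44% of Cd8b1 and 0.27% of Cd4 cells.

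The large pre-B value for Kit rested on few cells, of which the 10 highest held 70.1% of its UMIs. Markers of other lineages moved with it. When the 27 cells with Mpo, Gata1 or Gata2, Siglech, Ncr1 or Cd34 UMIs past low thresholds were set aside, a choice made after the values were seen, the remaining 682 large pre-B cells had 3.14 CPM of Kit with UMIs in 3.96%. The same step left pro-B cells at 29.9 CPM (664 cells). In pro-B cells, 18.2% of Kit UMIs lay in the 10 highest cells.

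Flt3 was high in plasmacytoid dendritic cells and progenitors and low in each B stage. Plasmacytoid dendritic cells had 151 CPM (139 to 165) with UMIs in 85.2% of cells, and they held 28.3% of the Flt3 UMIs in 1.63% of the cells. The Cd34 progenitor gate had 123 CPM (78.7 to 183) with UMIs in 5 of 9 cells, and myeloid progenitors had 102 CPM (80.9 to 127) with UMIs in 68.2%. These 3 classes were ordered only loosely, since the Cd34 interval overlapped both others, while those of plasmacytoid dendritic cells and myeloid progenitors were apart. Flt3 was at 0 UMIs in 112 NK cells, which allows a share of up to 2.68% of cells with a UMI, and at 0 in 24 mast cells.

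Pro-B cells had 11.6 CPM of Flt3 (9.40 to 14.2) with UMIs in 5.06% of cells, and 72.6% of these UMIs were in 10 cells. Without the 8 pro-B cells with markers of other lineages the level was 5.30 CPM (3.82 to 7.16). The other B stages lay between 2.32 CPM in small pre-B cells and 6.91 CPM in mature B cells, where 1 cell held 15 of the 28 UMIs. A further 25 cells met both the pro-B and the plasmacytoid dendritic gate and were kept out of each. They had Flt3 at 114 CPM with UMIs in 76.0% of cells, Il7r at 229 CPM with UMIs in 92.0%, and 1 Kit UMI in all. Whether they are doublets was not tested.

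**Figure D2:**
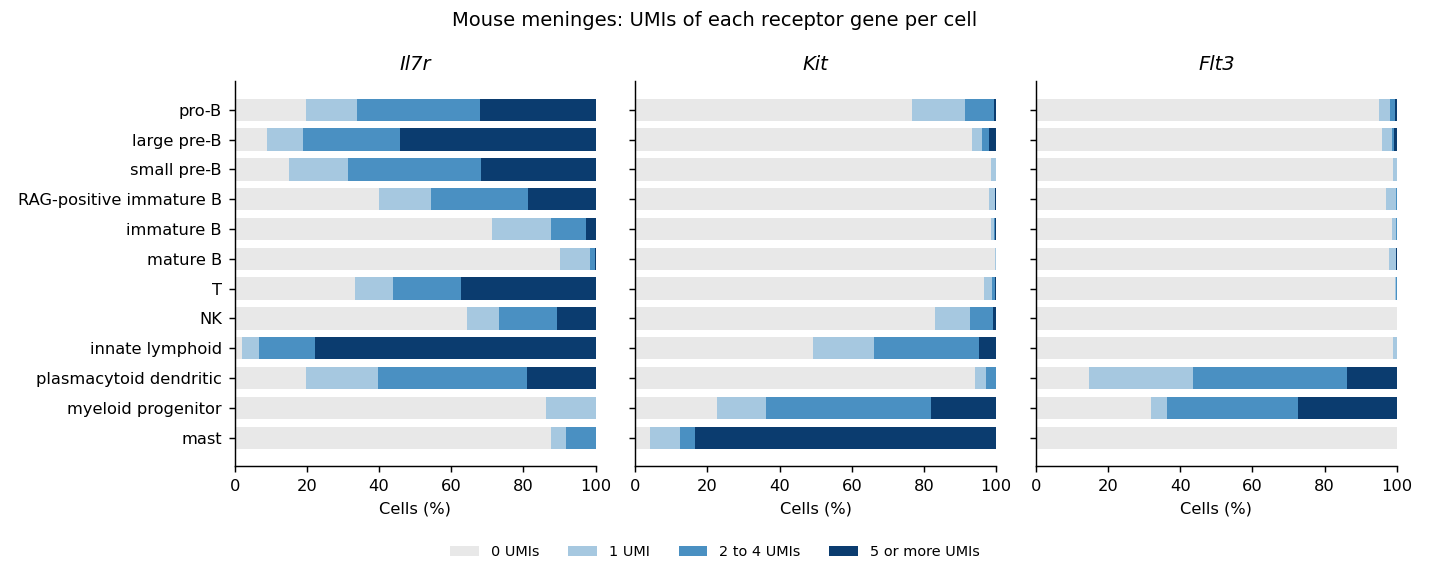
Shares of mouse cells with 0, 1, 2 to 4 and 5 or more UMIs of each receptor by class, at full depth. Il7r reached 5 or more UMIs in 77.8% of innate lymphoid and 54.2% of large pre-B cells, Kit in 83.3% of mast cells and Flt3 in 13.9% of plasmacytoid dendritic cells.

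The receptors overlapped in single cells in pairs that differed between classes. Of 672 pro-B cells, 123 had UMIs of both Il7r and Kit, 19 had both Kit and Flt3, and 17 had all 3. Il7r was found in 78.8% of pro-B cells with Kit and in 80.6% of those without. In large pre-B cells the figures were 61.7 and 93.1%, although the Kit-positive cells were deeper, with a median of 31257 UMIs against 15066. This split included the large pre-B cells with markers of other lineages, and it was not repeated without them. In plasmacytoid dendritic cells Il7r and Flt3 were found together in 151 of 216 cells. Kit and Flt3 were found together in 13 of 22 myeloid progenitors and in 5 of 9 cells of the Cd34 gate, and Il7r and Kit together in 94 of 189 innate lymphoid and 3 of 24 mast cells.

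Across the 12 mouse classes with at least 20 cells, genes were ranked by how closely their log2 levels followed each receptor, over 5439 genes, and those given here are among the 5 closest. For Il7r they were Rtf1 (Pearson r = 0.89), Ppp4r2 (0.88), 2810474O19Rik, Arl5a and Sap30l (0.86 each). For Kit they were Gpx4 (0.96), Mat2a (0.95), Mctp1, Calu and Agap1 (0.94 each), which were all highest in mast cells. For Flt3 they included Clec12a (0.99), Sh2b2 (0.98), Gria3 (0.98) and Csf1r (0.97), highest in plasmacytoid dendritic cells except Csf1r, the receptor of a macrophage growth factor, which was highest in myeloid progenitors. The classes come from 1 library, so these values describe it and carry no test.

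The ligands were scarce in the captured mouse cells, except Flt3l. Over the whole library there were 10 UMIs of Il7, 9 of Kitl and 47 of Tslp, and 2094 of Flt3l, whose level was 48.6 CPM in T cells and 41.1 CPM in innate lymphoid cells. Fibroblasts numbered 0 and endothelial cells 2 after the sort, so the stromal sources of these ligands were hardly sampled. The partner chain Il2rg was highest in mature B cells, the B stage with the lowest Il7r, with 61.2 CPM in pro-B, 30.9 in large pre-B, 89.2 in small pre-B, 90.4 in RAG-positive immature, 127 in immature and 272 in mature B cells. Innate lymphoid cells had 479 CPM of Il2rg and T cells 331. The TSLP receptor chain Crlf2 varied less, from 51.2 CPM in small pre-B to 88.3 CPM in mature B cells.

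For the pathway genes, a mouse difference from mature B cells was counted when it passed 2-fold on the CPM + 1 scale in a gene with at least 20 CPM in either class. By this rule Il7r was higher in pro-B cells (log2 difference 3.62), large pre-B cells (3.55) and small pre-B cells (4.69). Kit was counted as higher in pro-B cells (4.2) and not measured in the other stages, where it stayed under 20 CPM, and Flt3 was under 20 CPM in all of them. As background, 18.5% of the genes measured were higher and 8.55% lower in pro-B cells, 17.9% higher and 12.1% lower in large pre-B cells, and 12.3% higher and 7.61% lower in small pre-B cells. The median log2 difference of all measured genes was 0.33, 0.20 and 0.27.

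Signalling genes were mostly within 2-fold. Of 13 measured in pro-B cells 1 was higher and 4 were lower (median -0.53). Gab2, an adaptor, was higher (3.09), and the lower ones were the phosphatase Ptpn6 (-2.35), the ubiquitin ligase Cblb (-1.20), the kinase Lyn (-1.10) and Jak1 (-1.04). In large pre-B cells 3 of 12 were lower, namely Ptpn6 (-1.91), Jak1 (-1.60) and Stat3 (-1.02). In small pre-B cells 1 of 12 was lower, again Ptpn6 (-2.00), which restrains cytokine receptor signals.

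Target genes of STAT5 and growth signals went both ways within each stage. In pro-B cells 2 of 8 were higher, the feedback inhibitor Socs2 (3.42) and the cyclin Ccnd3 (1.27), and 3 lower, Bcl2 (-2.74), Myc (-2.44) and Socs3 (-1.37). In small pre-B cells the feedback inhibitor Socs1 (3.25) and the kinase Pim1 (1.99) were higher, and Bcl2 (-4.19), Myc (-3.86), Ccnd2 (-2.93) and Socs3 (-2.42) were lower, of 8 measured. Bcl2, which blocks cell death, was at 134 CPM in mature B cells, 19.2 CPM in pro-B and 6.42 CPM in small pre-B cells. In large pre-B cells 2 of 8 were higher and 4 lower. The median log2 differences of the target genes were -0.33, -1.07 and -1.36 in pro-B, large pre-B and small pre-B cells.

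Among 11 measured transcription factors that act on the receptor genes or their lineages, 3 were higher and 2 lower in pro-B cells, 2 and 3 in large pre-B cells, and 4 and 1 in small pre-B cells. Myb, a factor of progenitors, was higher in all 3 stages (3.90, 3.51 and 3.98), as was Tcf3 (1.49, 1.28 and 1.95), while Lmo2 was lower (-1.59, -2.49 and -3.81). Ebf1, a factor that sets the B cell programme, was at 3683 CPM in pro-B, 1666 in large pre-B, 4862 in small pre-B and 1547 in mature B cells. Of the related receptors, Il2ra, the alpha chain of the interleukin-2 receptor, was at 146 CPM in small pre-B cells against 5.18 in mature B cells, and Il4ra was lower than in mature B cells in pro-B (-2.89), large pre-B (-3.34) and small pre-B cells (-1.32).

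**Figure D3:**
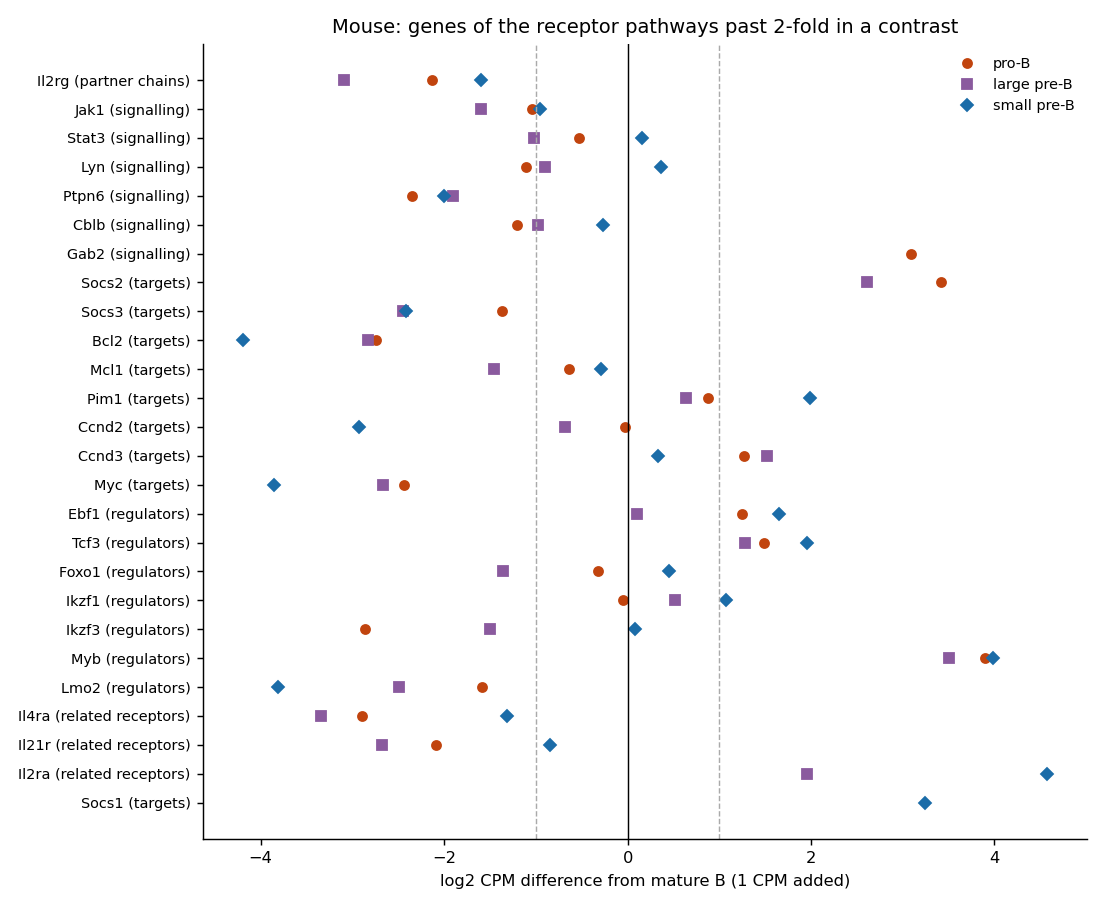
Log2 differences from mature B cells, on the CPM + 1 scale, of the pathway genes past 2-fold in at least 1 of mouse pro-B, large pre-B and small pre-B cells, 1 library, with dashed lines at 2-fold. Il2rg lay below the lower line in the 3 stages (-2.13, -3.10 and -1.60), and Myb above the upper one.

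In macaque meninges IL7R was highest in the CD3-negative lymphoid gate and in T cells, and its B cell values were lower. T cells (1061 and 1065 cells in channels 1 and 2) had 447 and 419 CPM, with UMIs in 29.5 and 28.6% of cells. NK cells (88 and 101) had 175 and 148 CPM. The CD3-negative lymphoid gate had 1382 and 829 CPM, with UMIs in 10 of 11 and in 16 of 16 cells. Both channels placed the CD3-negative lymphoid gate highest, then T cells, then NK cells, with no overlap between channels of neighbouring classes. T cells with the cytotoxic gene NKG7 had 362 CPM ± 13.7 (SD, n = 2), and T cells with neither NKG7 nor GZMB had 934 CPM ± 12.4 (SD, n = 2).

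Among the macaque B stages and the DNTT-gated cells, whose lineage is open, the larger IL7R counts lay in large pre-B and channel 2 DNTT-gated cells. The DNTT-gated cells (17 and 22) had 2 and 16 UMIs in 1 and 5 cells, which is 14.4 and 87.3 CPM, and large pre-B cells (47 and 37) had 18 and 23 UMIs, or 46.3 and 66.3 CPM. Small pre-B cells (158 and 124) had 2 and 0 UMIs, and immature cells (105 and 160) had 0 and 1. RAG-positive immature cells (20 and 19) had 2 and 0 UMIs, the 2 in 1 cell (22.2 CPM in channel 1), and mature B cells (514 and 490) had 10 and 15, or 3.87 and 6.21 CPM. Small pre-B cells were thus at or below 4.28 CPM in macaque, while in the mouse library they were the B stage with the highest Il7r. The species differ in sample age, tissue preparation, library and gates, and the difference between them was not tested. The mouse small pre-B gate asks for Cd79a or Cd79b and the mature B gate for Ighd, while the macaque gates ask for neither.

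In the edgeR quasi-likelihood fit within macaque meninges, IL7R was higher than in mature B cells in large pre-B cells (log2 difference 3.23 ± 0.39 SE, Benjamini-Hochberg adjusted p = 1.2e-07), in T cells (6.31 ± 0.19, adjusted p = 5.4e-21) and in NK cells (4.91 ± 0.29, adjusted p = 4.4e-14). Both channels showed each direction. These contrasts called 39.0, 51.0 and 32.4% of the 7455 genes tested. The difference did not pass for small pre-B (-1.30 ± 0.95, adjusted p = 0.32) and immature B cells (-2.44 ± 1.09, adjusted p = 0.37), where 32.9 and 1.22% of genes were called. Without channel 2 the small pre-B difference was 0.15. KIT and FLT3 did not pass the filter on low counts in this fit.

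DNTT-gated and large pre-B cells together had more IL7R than small pre-B cells in both channels. Their 20 UMIs in channel 1 (37.9 CPM) were 8.84 times the small pre-B level, with a counting interval of 2.15 to 78.0. Their 39 UMIs in channel 2 (73.6 CPM) were at least 8.63-fold higher than the level that 3 counts would give in the small pre-B cells of that channel, which had 0. The edgeR quasi-likelihood test gave an adjusted p of 9.3e-06, in a contrast that called 25.0% of genes. Since the lineage of the DNTT-gated cells is open, this merged result is not one of B stages alone. Large pre-B cells alone had a mean of 56.3 CPM over channels, against 2.14 CPM in small pre-B cells, and that contrast was not tested.

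A fit with a minimum of 10 cells per channel, added after the data were seen, took in the smaller gates. There IL7R was higher in DNTT-gated than in mature B cells (edgeR log2 difference 3.26 ± 0.62 SE, adjusted p = 1.1e-04, 21.7% of genes called), although the channel values of 14.4 and 87.3 CPM were far apart, and without channel 2 the difference was 1.90. It was not past the threshold in RAG-positive immature cells (0.88 ± 1.38, adjusted p = 0.82, 8.33% of genes called). In the CD3-negative lymphoid gate IL7R was higher than in mature B cells (7.79 ± 0.30, edgeR adjusted p = 2.1e-21, 15.1% of genes called), T cells (1.52 ± 0.18, adjusted p = 9.6e-08, 10.7% of genes called) and NK cells (2.90 ± 0.23, adjusted p = 2.1e-11, 7.14% of genes called).

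**Figure D4:**
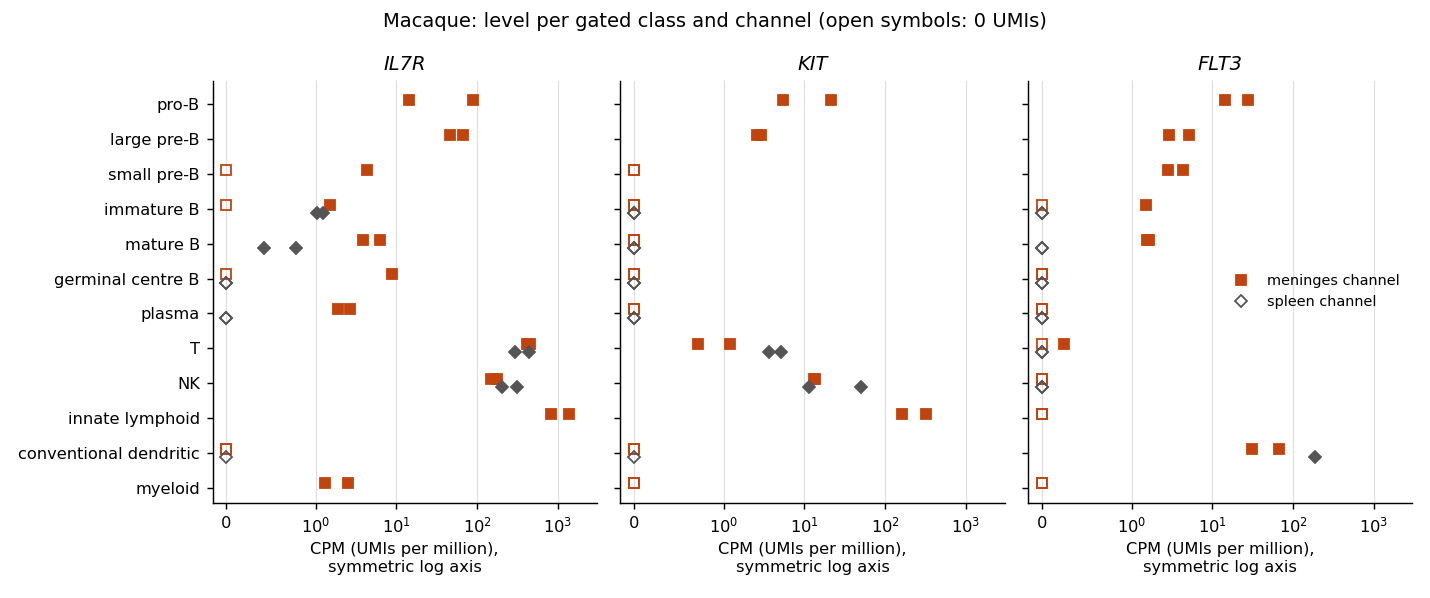
Levels of IL7R, KIT and FLT3 by class in macaque meninges (squares) and spleen (diamonds) in CPM on a symmetric log axis, each point 1 channel, open symbols at 0 UMIs, with the DNTT-gated cells in the pro-B row and the CD3-negative lymphoid gate in the innate lymphoid row. In meninges IL7R was highest in the CD3-negative lymphoid gate, followed by T cells, and KIT reached 322 and 161 CPM in that gate.

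Macaque KIT was rare and lay mostly outside the B series. The 2 meningeal channels held 134 and 166 KIT UMIs in all. The CD3-negative lymphoid gate had 21 and 19 of them, which is 322 and 161 CPM in 36.4 and 31.2% of its cells. Mature B cells had 0 KIT UMIs in each channel, so the level in the gate was at least 278-fold higher in channel 1 and at least 129-fold higher in channel 2, against 3 counts per channel. NK cells had 5 UMIs per channel (13.7 and 13.0 CPM), in 1 cell of channel 1 and 4 cells of channel 2, and the CD3-negative lymphoid gate was above them (edgeR log2 difference 4.28 ± 0.61 SE, adjusted p = 1.5e-05). T cells had 1.21 and 0.72 CPM. DNTT-gated cells had 3 and 1 UMIs, large pre-B cells 1 and 1, and small pre-B, immature and mature B cells 0.

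Most KIT UMIs of macaque meninges, 70.9 and 74.1%, were in cells of no class. These 43 and 51 cells had IL7R UMIs in 79.1 and 80.4%, against 8.37 and 7.63% of the no-class cells without KIT. They had XCL1, a chemokine of innate and cytotoxic lymphocytes, in 81.4 and 86.3% (9.5 and 9.91% without KIT), and TYROBP, an adaptor of NK and myeloid receptors, in 90.7 and 92.2% (30.3 and 31.5%). TNFSF10 was in 76.7 and 80.4% of them and in 3.89 and 2.70% of the others. MS4A1, a B cell gene that bars a cell from the CD3-negative lymphoid gate, was in 46.5 and 43.1% of the KIT-positive cells, which were also deeper (medians 5038 and 7237 UMIs against 3981 and 3927). With gates that tolerate stray UMIs, the CD3-negative lymphoid gate held 17 and 24 cells, with IL7R at 1415 and 1253 CPM and KIT at 293 and 256 CPM. KIT was again above NK cells there (edgeR log2 difference 4.27 ± 0.48 SE, adjusted p = 5.9e-08).

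Macaque FLT3 was the scarcest of the 3, with 43 and 37 UMIs in the meningeal channels. The conventional dendritic gate, which held 7 and 9 cells, had 66.2 and 30.6 CPM in 4 and 3 of these cells. DNTT-gated cells had 2 and 5 UMIs (14.4 and 27.3 CPM), large pre-B cells 2 and 1, small pre-B cells 2 and 1, and mature B cells 4 and 4. The macaque plasmacytoid dendritic gate held 1 and 2 cells and the CD34 progenitor gate 2 and 2, too few to compare with mouse.

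Summed over all cells, the 3 receptors were each higher in macaque meninges than in spleen. IL7R was 164 and 163 CPM in the meningeal against 25.2 and 22.7 in the spleen channels (edgeR log2 difference 2.82 ± 0.06 SE, adjusted p = 2.4e-08). KIT was 7.17 and 8.54 against 0.80 and 1.05 CPM (3.12 ± 0.23, adjusted p = 8.7e-06), and FLT3 was 2.30 and 1.90 against 0.35 and 0.73 CPM (1.97 ± 0.39, adjusted p = 0.0025). Channels of the tissues did not overlap for any of them. This contrast called 58.2% of 12441 genes, and a change in the mix of classes cannot be told apart here from a change within cells. By the gate, T cells made up 26.3 and 24.9% of cells in meninges and 2.36 and 3.32% in spleen. The gate bars cells with MS4A1 or CD79B UMIs, so it leaves out more CD3-positive cells in spleen. Such UMIs were in 63.8 and 49.0% of spleen and 12.1 and 12.2% of meningeal cells with at least 5 CD3 UMIs. CD3 transcripts were in 41.7 and 41.4% of all meningeal and 21.6 and 23.7% of all spleen cells. DNTT, RAG1 and RAG2 were not listed in the spleen tables, and of the early B cell gates only large pre-B found a cell there, 1 in channel 1.

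Within T cells the tissue difference of IL7R was small. The meningeal channels had 447 and 419 CPM and the spleen channels 433 (138 cells) and 293 (225 cells), so the groups overlapped, and the difference was not past the threshold (edgeR log2 difference 0.43 ± 0.14 SE, adjusted p = 0.053). It passed with a stricter cell filter (0.45, edgeR adjusted p = 0.041) and with gates that tolerate stray UMIs (0.76, adjusted p = 6.3e-04). The T cell contrast called 15.7% of 8808 genes. At 1000 UMIs, IL7R was found in 19.7 and 19.7% of meningeal and in 11.8 and 14.7% of spleen T cells. B cell UMIs, found in 12.1 and 12.2% of meningeal cells with at least 5 CD3 UMIs, were in 63.8 and 49.0% of such spleen cells. The T cell gate bars cells with MS4A1 or CD79B UMIs, so the cells behind these shares are not in it. The part of stray B cell transcripts in the T cell values was not tested.

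Within mature B cells IL7R was rare in both tissues and higher in meninges. The meningeal channels had 10 and 15 UMIs (3.87 and 6.21 CPM) and the spleen channels 2 and 4 (0.42 and 0.78 CPM), without overlap (edgeR log2 difference 3.09 ± 0.60 SE, adjusted p = 0.0011, 25.1% of 9340 genes called). Summed over channels the ratio was 8.21, with a counting interval of 3.29 to 24.5. IL7R UMIs were in 1.39% of meningeal and 0.20% of spleen mature B cells (channel means). In meningeal channel 2, 2 cells had 5 or more UMIs, at most 6, so much of its total of 15 lay in these cells. Among all cells with at least 5 B cell UMIs, CD3 transcripts were found in 20.2 and 22.0% in meninges and in 23.5 and 23.7% in spleen. The mature B gate bars cells with CD3 UMIs, so the cells behind these shares are not in it. The part of stray T cell transcripts in the mature B values was not tested. Spleen NK cells, 38 and 35, were under the minimum of 50 cells per channel for a tissue test of their own, and had 308 and 204 CPM of IL7R, with 6 UMIs and 1 UMI of KIT. Mean IL7R of NK cells was 161 CPM ± 19.1 (SD, n = 2) in meninges and 256 ± 73.8 in spleen. In CPM this was the opposite direction to T cells. The spleen NK values rested on few cells, since 89.5 and 91.4% of the cells had no IL7R UMI. The share of NK cells with an IL7R UMI was 14.5% in meninges and 9.55% in spleen (channel means). This was the same direction as in T cells (29.1 and 17.3%). After thinning, the NK shares were 8.01 and 8.97%. The tissue difference of IL7R did not pass as differing between T and NK cells (edgeR interaction 0.89 ± 0.27 SE, adjusted p = 0.55). Gates asking for 1 more UMI of each marker gave 1.55, adjusted p = 0.025. Both fits used these few spleen NK cells, or those of them left by the stricter gates, with no minimum set.

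As in mouse, the partner chain IL2RG was lowest in large pre-B and highest in mature cells among the macaque B stages. DNTT-gated cells had 6 and 4 UMIs of IL2RG, large pre-B cells 0 and 2, small pre-B cells 7 and 8, RAG-positive immature cells 7 and 5, immature cells 71 and 96 (153 and 144 CPM), and mature B cells 565 and 524 (219 and 217 CPM). It was lower in small pre-B than in mature B cells by edgeR (-3.86 ± 0.24, adjusted p = 4.5e-13). T cells had 456 and 474 CPM of it. Of the ligands, IL7 had 124 and 118 UMIs and FLT3LG 143 and 164 in the meningeal channels, with FLT3LG at 21.5 and 24.0 CPM in T cells. TSLP, KITLG and CRLF2 were not listed.

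In macaque large pre-B cells, 1 of 15 signalling genes was higher than in mature B cells and 9 were lower by edgeR (median log2 difference -1.48), beside 39.0% of all 7455 genes called in either direction (median -0.04). In small pre-B cells 3 were higher and 8 lower of 15 (median -0.80), beside 32.9% of all genes (median -0.03). JAK1 fell in both (-1.48 ± 0.13 and -0.80 ± 0.12), as did PTPN6 (-1.63 ± 0.17 and -1.28 ± 0.16) and the adaptor GRB2 (-1.55 ± 0.15 and -1.53 ± 0.14), while PIK3CD rose (0.90 ± 0.22 and 0.92 ± 0.21). Both STAT5 genes fell in both, STAT5A (-1.72 ± 0.37 and -1.17 ± 0.31) and STAT5B (-2.00 ± 0.61 and -1.92 ± 0.56). So did JAK3 (-2.44 ± 0.73 and -1.48 ± 0.57) and STAT3 (-2.01 ± 0.29 and -1.06 ± 0.23), and TYK2 fell in large pre-B cells (-2.70 ± 0.77). Of 6 target genes tested, 1 rose and 4 fell in large pre-B cells and 0 and 4 in small pre-B cells. BCL2 fell in both (-3.12 ± 0.38 and -4.08 ± 0.42), and the cyclin CCND3 rose in large pre-B cells (2.16 ± 0.15). Of 12 transcription factors tested, 2 rose and 2 fell in large pre-B and 3 and 1 in small pre-B cells, with MYB (4.44 ± 0.26 and 4.81 ± 0.24) and TCF3 (2.01 ± 0.14 and 2.42 ± 0.13) higher in both. Of 6 related receptors, 3 fell in each, and PDGFRA rose in small pre-B cells (0.47 ± 0.14). Mouse Pdgfra had 0 UMIs in pro-B, large pre-B and mature B cells and 1 in small pre-B cells. Whether the macaque counts come from that gene was not tested, since the annotation used is not given. IL2RA, at 146 and 143 UMIs in mature B cells, had 0 in macaque small pre-B cells, whereas the mouse gene was high there.

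In T cells between the tissues, 2 of 6 related receptors rose and 1 fell in meninges by edgeR, beside 908 higher and 477 lower of 8808 genes. IL2RA (1.63 ± 0.36) and IL4R (1.59 ± 0.25) rose, and IL2RB (-0.35 ± 0.10) fell. Of 14 signalling genes 0 rose and 2 fell, PTPN6 (-0.75 ± 0.11) and CBL (-0.85 ± 0.21). Of 7 target genes, SOCS3 (3.0 ± 0.46) and BCL2 (0.68 ± 0.16) rose, and of 8 transcription factors GATA3 rose (0.85 ± 0.25), while TCF7 (-1.50 ± 0.35), IKZF1 (-0.78 ± 0.10) and IKZF3 (-0.48 ± 0.10) fell. When 1 spleen channel was left out, this contrast called 0 genes in edgeR (1938 and 1705 at an unadjusted p under 0.05), while DESeq2 on all channels called 704, so these T cell calls depend on the spleen channels.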

How the data were processed

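Single cells were profiled by 10x 3' sequencing. The values are UMI counts per gene and cell as deposited by the authors, made with Cell Ranger and with build mm10 named for all samples, per the submitters' processing notes. For macaque, the genome and annotation used in counting are not given in the sources used here. Macaque tables list only genes seen in at least 3 cells, and an unlisted gene was counted as 0. Median depth per barcode was 6309 UMIs in mouse and 2397 to 4096 in macaque, over 13947 and 4073 to 6786 barcodes.

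A cell needed 300 genes and no more than 10% of its UMIs from mitochondria, and Scrublet calls were removed (173 in mouse, 39 in each meningeal channel). In spleen the caller marked 0 cells and was not used. Gates on raw UMIs used 52 mouse and 57 macaque genes, and cells meeting 2 gates were left out of both. Levels are UMIs per 1000000 UMIs of the class, with exact Poisson intervals of 95% that cover counting error only. Shares at equal depth were taken after thinning to 1000 UMIs. Sums per channel and class were tested with edgeR 4.0.16 (quasi-likelihood, filterByExpr, TMM, Benjamini-Hochberg, threshold 0.05) in R 4.3.3, with the channel as a block in fits within meninges, for classes with at least 20 cells per channel (50 between tissues). The fits between tissues and that of small pre-B against mature B cells were tested on simulated data, where 37.3% of 2-fold and 82.1% of 4-fold changes were recovered for T cells between tissues. False calls numbered 24 of 210 for all cells, 10 of 149 for T cells, 4 of 176 for mature B cells and 6 of 154 for small pre-B cells. For all cells and T cells they exceeded the share set by the threshold.

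The gene members and the 6 pathway lists (56 genes) were chosen with earlier results of these data known. Genes named are the members, up to 5 per list with the largest changes past the threshold, and the 5 genes most like each member, of which 1 is not reported here. Genes such as Ebf1 and IL2RG were also given for their levels. Alternatives were DESeq2 1.42.0, other filters, stricter gates, and leaving out each channel. Gates tolerating stray UMIs, removal of cells with markers of other lineages, and the fit with at least 10 cells were added after the data were seen. No protein or promoter sequence was used here.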

Additional observations from a re-analysis of the deposited data

How the results depend on the processing

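The tissue difference of IL7R in macaque T cells, not past the threshold in the report (edgeR adjusted p = 0.053), passed with the channel number as a replicate block (0.44, adjusted p = 0.018), with a stricter cell filter (0.45, adjusted p = 0.041) and with gates that tolerate stray UMIs (0.76, adjusted p = 6.3e-04). It ranged from 0.20 to 0.69 when 1 channel was left out. The edgeR interaction of tissue with T against NK cells passed with stricter gates (1.55, adjusted p = 0.025), with no minimum of NK cells set. The causes were not tested. The same-numbered channels of the tissues did not vary together (r = -0.12 over 12441 genes), so they share only a number. The replicate block gave 7110 called genes over all cells against 7235 without it and 7685 with the numbers crossed, 1420 against 1385 in T cells and 2244 against 2343 in mature B cells, and changed no other member call between tissues. Dropping the channel block within meninges changed no member call.

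Leaving out 1 channel gave 2.79 to 2.84 for IL7R, 2.89 to 3.38 for KIT and 1.51 to 2.66 for FLT3 over all cells, and 2.71 to 3.59 for IL7R in mature B cells. Within meninges, IL7R with 1 channel, a value with no test, was 6.08 or 6.85 in T, 4.58 or 5.50 in NK and 3.42 or 3.58 in large pre-B cells against mature B cells. Without channel 2 it was 0.15 in small pre-B cells, and 3.14 for DNTT-gated and large pre-B against small pre-B cells. Calls in T cells between tissues numbered 704 by DESeq2, 281 with no filter on low counts, 918 without meningeal channel 2 and 0 without either spleen channel, and in mature B cells 1169 by DESeq2 and 1500 with stricter gates. Immature against mature B cells gave 162 with no filter on low counts and 237 with stricter gates, against 91.

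Mouse levels in CPM moved as follows. Averaging over cells gave Il7r 362 in pro-B, 401 in large pre-B and 19.8 in mature B cells, Kit 37.9 in pro-B and 8.36 in large pre-B cells, and Flt3 6.35 in pro-B cells. The stricter cell filter gave Il7r 303 in pro-B, 285 in large pre-B, 684 in small pre-B and 34.7 in mature B cells, and Flt3 172 in plasmacytoid dendritic cells. Stricter gates gave Il7r 266 in large pre-B, 685 in small pre-B and 16.0 in mature B cells, Kit 36.4 in pro-B and 9.63 in large pre-B cells, and Flt3 9.05 in pro-B cells. Gates tolerating stray UMIs gave Il7r 303, Flt3 8.02 in pro-B and Kit 8.12 in large pre-B cells. Without cells with markers of other lineages, Il7r was 333 and Kit 3.14 in large pre-B and Flt3 5.30 in pro-B cells. The share of meningeal T cells with IL7R at equal depth was 19.9% with the stricter cell filter, 20.8% with stricter gates, 19.3% with tolerant gates and 25.2% at 2000 UMIs, where spleen T cells had 16.5%. For the CD3-negative lymphoid gate it was 58.3% with the stricter filter and 56.4% with stricter gates. Macaque KIT and FLT3 are limited by 37 to 166 UMIs per meningeal channel.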
